A study of Mus musculus with 18 samples.

Results

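The autophagy machinery is the set of proteins that builds a membrane sac around part of the cytoplasm and hands it to the lysosome. Its members were 39 genes taken by symbol from the deposited table of 62197 genes, of which 25177 carry a symbol. Each of the 39 symbols matched 1 gene, and all 39 passed the minimum of 10 normalized counts in at least 3 libraries that let a gene be tested, as did 17875 genes in all. A kinase complex around ULK1 starts the process, a lipid kinase complex around beclin 1 marks the growing membrane, and ATG9 and ATG2 proteins supply its lipids. Ubiquitin-like conjugation then attaches small ATG8 proteins (the LC3 and GABARAP families) to the membrane, where cargo receptors bind them, and the closed autophagosome fuses with the lysosome. In dendritic cells (DCs) this route breaks down microbes and damaged organelles and brings cytosolic proteins to compartments that load MHC class II molecules.

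The study sequenced polyadenylated RNA in bulk from mouse bone marrow-derived DCs after 10 days of culture with GM-CSF. The cells came from cPLA_2_ WT mice or from cPLA_2_ KO mice, in which floxed *Pla2g4a*, the gene of cytosolic phospholipase A_2_ (cPLA_2_), is removed by a Cre under the *Itgax* (CD11c) promoter, so that deletion is limited to cells that have switched on that promoter. The mice were adults of either sex on a C57BL/6 background. Nonconfined cells received no treatment, confined cells were held between surfaces 3 µm apart and collected 4 h after confinement began, and the LPS groups received 100 ng ml-1 lipopolysaccharide, a bacterial wall component, for 30 min according to the labels, and were then washed and kept until the next day. The methods text gives a slightly shorter exposure to LPS. These treatments in both genotypes make 6 groups of 3 libraries, 18 in all. Nothing in the labels says that the 3 libraries of a group come from separate animals or cultures, although the study calls them biological replicates, so p-values measure the spread between these libraries. The labels give no library a date or batch.

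Each value is a gene count divided by a scaling factor of its library, which is called a normalized count here. Multiplying the factors back gave whole reads for 100% of values within 0.001, with 33027230 to 61300021 reads on genes per library and a median of 40950398. The median was 39851237 reads for nonconfined cPLA_2_ WT and 42049558 for confined cPLA_2_ WT libraries, and 37116045 and 33672070 for the matching cPLA_2_ KO libraries. They were 52482280 and 43169041 reads in the LPS libraries labelled cPLA_2_ WT and cPLA_2_ KO. Changes are given as log2 fold changes with the standard error (± SE) from limma, a linear model fitted across all genes, and a gene was called higher or lower at an adjusted p under 0.05. Levels with ± are means with the SD over n = 3 libraries.

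The genotype labels were checked against *Pla2g4a* itself and against genes of the sex chromosomes. *Pla2g4a* had 697, 686 and 770.4 normalized counts in the nonconfined cPLA_2_ WT libraries and 548, 542 and 533 in the nonconfined cPLA_2_ KO libraries. Confinement groups held 1369, 1430.3 and 1321 in cPLA_2_ WT and 923, 871 and 919.5 in cPLA_2_ KO cells. The cPLA_2_ KO libraries were thus lower without overlap in both settings, while still holding reads of the gene. The LPS libraries held 1005, 969 and 967 under the cPLA_2_ WT label and 1065, 1032 and 1028 under the cPLA_2_ KO label, so there the cPLA_2_ KO label was the higher one. The Y-linked *Ddx3y* had 3.05, 0 and 1.97 in nonconfined cPLA_2_ WT and 0, 1.72 and 2.37 in confined cPLA_2_ WT libraries, against 949, 981 and 874 in nonconfined cPLA_2_ KO and 1036, 920.2 and 948 in confined cPLA_2_ KO libraries. In nonconfined and confined cells, genotype and the presence of Y-linked transcripts therefore cannot be told apart. In the LPS libraries *Ddx3y* had 1271, 0 and 662 under the cPLA_2_ WT label and 2.12, 1476 and 783 under the cPLA_2_ KO label. The LPS libraries do not follow their genotype labels as the other libraries do, and *Eif2s3y*, *Kdm5d* and *Uty* split them in the same way. *Xist*, transcribed from the inactive X chromosome, had 26298, 27791 and 27224 in the LPS cPLA_2_ WT label and 30960.2, 16450.2 and 21654 in the LPS cPLA_2_ KO label. It had 27953, 33681 and 30681 in nonconfined and 22734, 33482 and 29759 in confined cPLA_2_ WT libraries, and 12153, 19081 and 14328 and 16979.6, 24835 and 20600 in the matching cPLA_2_ KO libraries. For these reasons the LPS libraries are compared as the mean over both labels, with counts for each label alone.

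**Figure D1:**
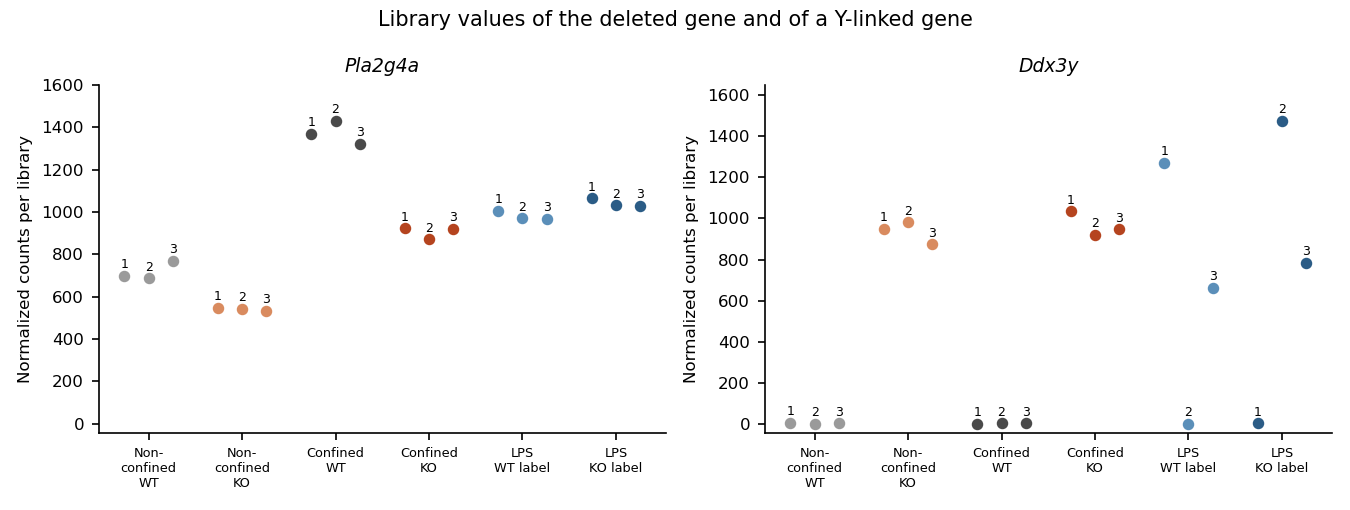
Normalized counts per library (points, numbered by replicate) of *Pla2g4a* and of the Y-linked *Ddx3y* in the 6 groups of 3 libraries. In nonconfined and confined cells *Ddx3y* is near 0 for cPLA_2_ WT libraries and at 874 to 1036 for cPLA_2_ KO libraries, while each LPS label holds both kinds.

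The 13 DC marker genes listed were led by *Cd74* in nonconfined and confined libraries and by *Ccl22* in LPS libraries. They summed to 571091, 543651 and 549317 normalized counts in nonconfined cPLA_2_ WT and 561772, 526093 and 539057 in confined cPLA_2_ WT libraries, and to 672688, 630387 and 658345 and 453487, 436810 and 452936 in the matching cPLA_2_ KO libraries. With LPS they summed to 1494960, 1393520 and 1453230 under the cPLA_2_ WT label and 1436320, 1508800 and 1485020 under the cPLA_2_ KO label. Markers of other cells of bone marrow culture moved with the groups. The 11 neutrophil genes, led by *S100a9*, summed to 255613, 260574 and 258886 in nonconfined cPLA_2_ WT and 171588, 163853 and 161868 in confined cPLA_2_ WT libraries. In cPLA_2_ KO libraries they summed to 391608, 355625 and 379970 when nonconfined and 359733, 369283 and 355379 when confined. These sums were thus lower in confined than in nonconfined cPLA_2_ WT cells and higher in cPLA_2_ KO than in cPLA_2_ WT cells in both settings. Of these genes *Mmp8* rose with cPLA_2_ WT confinement, from 16132, 15977 and 15902 to 17357, 16869 and 17073. *Elane* was lower in nonconfined cPLA_2_ KO libraries, with 869, 809 and 865, than in nonconfined cPLA_2_ WT libraries, with 1026, 874 and 1002. With LPS the 11 neutrophil genes summed to 320810, 301882 and 304319 under the cPLA_2_ WT label and 288236, 324658 and 306201 under the cPLA_2_ KO label. The 8 eosinophil genes, led by *Prg2*, differed more, with 33850.4, 33700.2 and 33690.4 in nonconfined cPLA_2_ WT and 9911, 9427 and 9304 in confined cPLA_2_ WT libraries. In cPLA_2_ KO libraries they held 83323, 77333 and 79335 when nonconfined and 25136, 24788 and 25727 when confined. With LPS they held 47874, 27799 and 38472 under the cPLA_2_ WT label and 27799, 48127 and 39035 under the cPLA_2_ KO label. Among them *Siglecf* went against the sum in nonconfined cells, with 1426, 1346 and 1435 in cPLA_2_ WT and 931, 990 and 907 in cPLA_2_ KO libraries. Nor did *Siglecf* fall with confinement, with 1576, 1356 and 1411 in confined cPLA_2_ WT and 1174, 1029 and 1107 in confined cPLA_2_ KO libraries. *Ccr3* rose with cPLA_2_ WT confinement, from 82.3, 83.6 and 90.4 to 207, 190 and 173. In cPLA_2_ KO cells *Ccr3* fell with the sum, from 246, 220 and 221 to 75.5, 42.7 and 65.6. The 8 mast cell and basophil genes, led by *Cpa3* or *Prss34*, had group means of 9158 in nonconfined and 3433 in confined cPLA_2_ WT cells, and 13616 and 6122 in the matching cPLA_2_ KO cells, with 8916 and 9141 under the LPS labels cPLA_2_ WT and cPLA_2_ KO. The 9 macrophage genes, led by *Csf1r*, had means of 66629, 66530.2, 74231 and 73998 in the same order, with 59351 and 58612 under the LPS labels. Single genes in this sum moved with confinement in both directions. With cPLA_2_ WT confinement *C1qa* fell from 369, 400 and 399 to 203, 206 and 225. *Cd68* rose there from 11514, 10526 and 10886 to 13792, 12951 and 13691. With cPLA_2_ KO confinement *Fcgr1* fell from 3183, 2977 and 3080 to 1402, 1368 and 1503. The 3 T cell genes found of 4, led by *Cd3g*, had means of 2469, 765, 3036 and 1119.9 in the order of the macrophage means, with 449 and 460.1 under the LPS labels. *Cd3g* made up most of each sum. In nonconfined cPLA_2_ WT libraries it had 2337, 2307 and 2274, against 124, 169 and 129 for *Cd3d* and 16.8, 18.8 and 32.4 for *Cd3e*. No marker of these sets in the table was at 0 in every library. The methods text says that granulocytes, which do not adhere, are lost during this culture. The part of these cells in the results was not tested, and in bulk RNA fewer cells of a type and less RNA per cell cannot be told apart.

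Confined cells at 3 µm were compared with nonconfined cells, so that confinement and handling in the device cannot be told apart. In cPLA_2_ WT cells 23 of the 39 members were higher after confinement, beside 28.2% of all genes tested, and 7 were lower, beside 28.4%. The largest increases were those of the cargo receptors *Optn* and *Tax1bp1* and the ATG8 gene *Gabarapl1*, and these 3 were the members above a log2 fold change of 1, a size that 11.4% of all genes reached upward. The median change of the members was 0.26, against −0.01 over all genes tested. In cPLA_2_ KO cells 25 members were higher, beside 22.8%, and 1 was lower, beside 23.4%. *Gabarapl1* was the 1 member above a log2 fold change of 1 there, beside 6.43% of all genes. The median change of the members was 0.30, against 0.01 over all genes. Of the members higher in cPLA_2_ WT cells and those higher in cPLA_2_ KO cells, 21 were in both lists, out of 23 (91.3%, beside 58.1% of all genes higher in cPLA_2_ WT cells) and out of 25 (84%, beside 71.7% of those higher in cPLA_2_ KO cells). When every library was given an equal total, the median change of all genes was −0.23 for cPLA_2_ WT cells and −0.02 for cPLA_2_ KO cells, and the cPLA_2_ WT members split into 16 higher and 13 lower. Here and below, shares of all genes are for the authors' factors alone, so counts with equal totals have no such share beside them. Normalized totals averaged 34125100 in nonconfined and 39890270 in confined cPLA_2_ WT libraries. The 1 lower member in cPLA_2_ KO cells, *Atg10*, was not called without nonconfined cPLA_2_ KO replicate 2 (adjusted p = 0.0546) or confined cPLA_2_ KO replicate 3 (0.0924), and without nonconfined cPLA_2_ KO replicate 1 the lower members were 2.

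**Figure D2:**
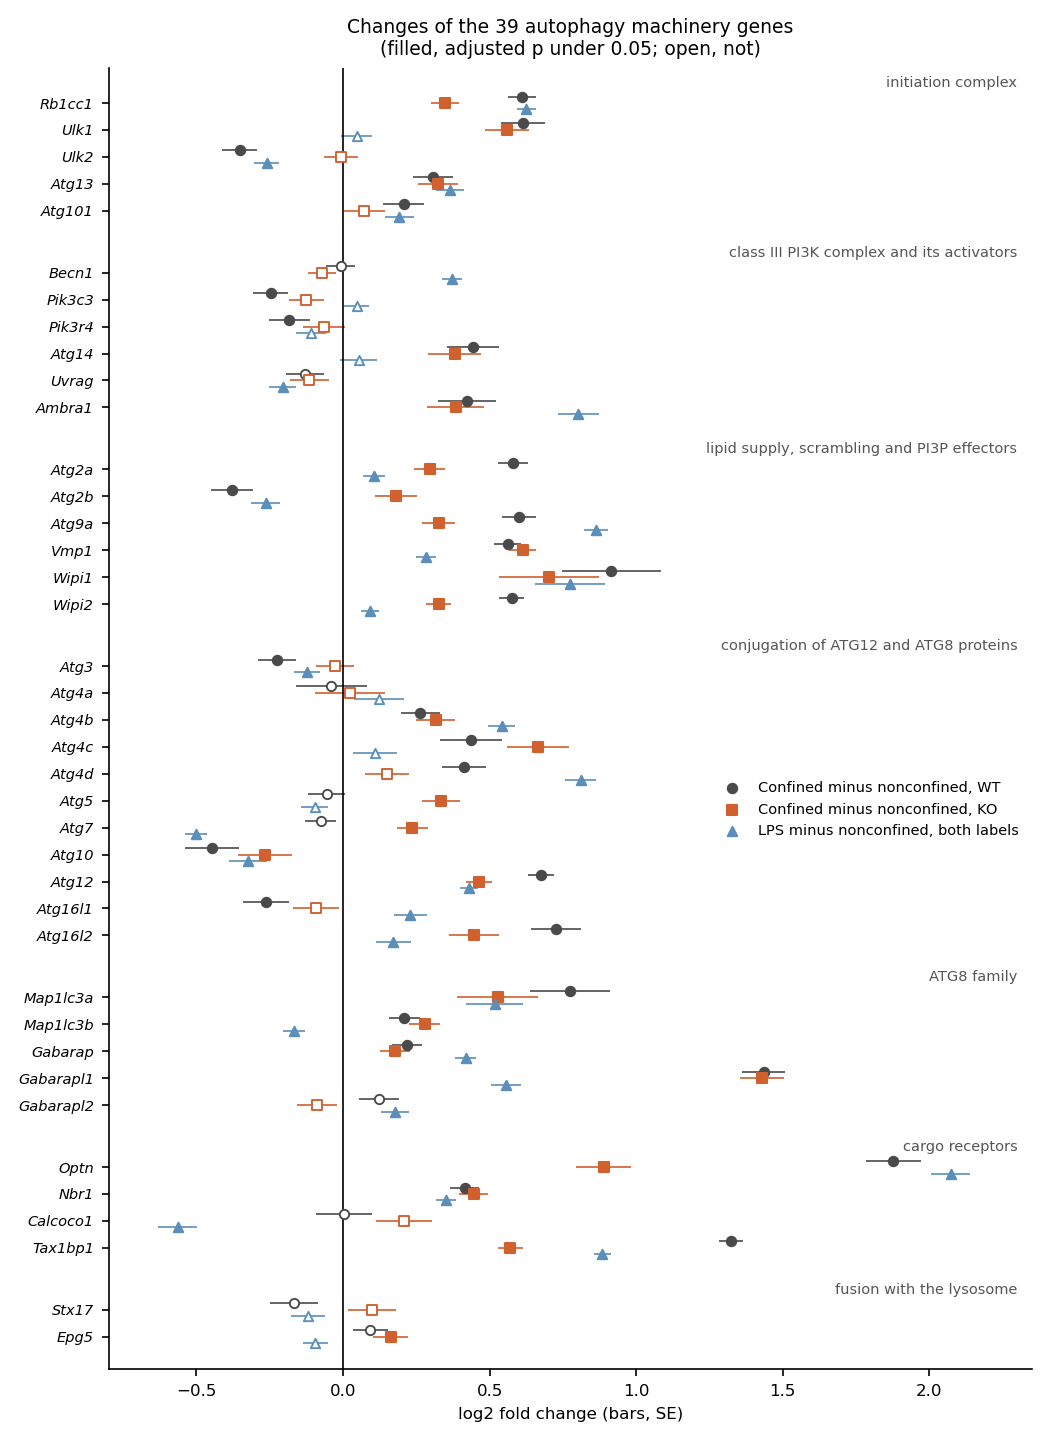
Log2 fold changes (points; bars, SE) of the 39 members, grouped by role, for confined against nonconfined cPLA_2_ WT cells, the same in cPLA_2_ KO cells, and LPS against nonconfined cells over both labels, with filled points for an adjusted p under 0.05. *Optn* reaches 1.88, 0.89 and 2.07 in the 3 comparisons, and *Gabarapl1* 1.43, 1.43 and 0.56, while *Calcoco1* is at −0.56 with LPS.

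Among the 5 genes of the initiation complex, 4 rose, beside 28.2% of all genes, and 1 fell, beside 28.4%, with confinement in cPLA_2_ WT cells, and 3 rose in cPLA_2_ KO cells, beside 22.8%, although with equal totals per library the cPLA_2_ WT count was 2 and 1. *Rb1cc1* encodes FIP200, the scaffold on which the ULK kinases assemble. It had 2207, 2325 and 2439 normalized counts in nonconfined cPLA_2_ WT and 3372, 3637 and 3634 in confined cPLA_2_ WT libraries. In cPLA_2_ KO libraries it had 2431, 2448 and 2473 when nonconfined and 3154, 3224 and 2989 when confined. Every confined library lay above every nonconfined one, and of these 12 the 3 confined cPLA_2_ WT libraries lay highest. The change was 0.61 ± 0.05 in cPLA_2_ WT (adjusted p = 3.72e-10) and 0.35 ± 0.05 in cPLA_2_ KO cells (adjusted p = 3.21e-06). *Ulk1*, the kinase that starts autophagy, had 1247, 1083 and 1201 in nonconfined and 1788, 1681 and 1939 in confined cPLA_2_ WT libraries, and 1106, 1323 and 1209 and 1899, 1665 and 1789.8 in the matching cPLA_2_ KO libraries. Confined and nonconfined libraries did not overlap, while the genotypes did. It rose by 0.61 ± 0.07 in cPLA_2_ WT (adjusted p = 4.09e-07) and by 0.56 ± 0.07 in cPLA_2_ KO cells (adjusted p = 2.82e-06). Its relative *Ulk2* went the other way in cPLA_2_ WT cells, from 1833, 1861 and 1877 to 1459, 1481 and 1424. In cPLA_2_ KO cells *Ulk2* had 1648, 1877 and 1825 when nonconfined and 1856, 1673 and 1791 when confined, and those groups overlapped. The cPLA_2_ WT change was −0.35 ± 0.06 (adjusted p = 3.18e-05), and it differed between the genotypes by 0.35 ± 0.08 (adjusted p = 0.00393). *Atg13*, the adaptor between kinase and scaffold, rose in both genotypes, and its stabilizing partner *Atg101* was called in cPLA_2_ WT cells, with changes between 0.07 and 0.32 for these 2 genes over both genotypes.

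The class III PI3K complex, which makes the lipid PI3P on the nascent membrane, has 6 members here. Of these 2 rose, beside 28.2% of all genes, and 2 fell, beside 28.4%, in cPLA_2_ WT cells, and 2 rose in cPLA_2_ KO cells, beside 22.8%. Equal totals per library gave counts of 1 and 4 in cPLA_2_ WT and 2 and 2 in cPLA_2_ KO cells. *Atg14*, the subunit that directs the complex to autophagy, had 583, 585 and 551 in nonconfined and 767, 737 and 839 in confined cPLA_2_ WT libraries. It had 589, 554 and 578 and 739, 751 and 751 in the matching cPLA_2_ KO libraries. All 6 confined libraries lay above all 6 nonconfined ones. The rise was 0.44 ± 0.09 in cPLA_2_ WT (adjusted p = 2.07e-04) and 0.38 ± 0.09 in cPLA_2_ KO cells (adjusted p = 0.00137). *Becn1*, the beclin 1 scaffold of the complex, had 2595, 2701 and 2595 in nonconfined and 2723, 2616 and 2512 in confined cPLA_2_ WT libraries, 2778, 2774 and 2944 in nonconfined cPLA_2_ KO and 2804, 2569.9 and 2709 in confined cPLA_2_ KO libraries. These groups overlapped within each genotype. *Pik3r4*, the VPS15 regulatory subunit, had the smallest range of group means on the log2 scale among the members, 0.18. Its libraries held 1508, 1392 and 1372 in nonconfined and 1250.4, 1231 and 1278 in confined cPLA_2_ WT cells, and 1185, 1492 and 1414 and 1325, 1302 and 1268 in the matching cPLA_2_ KO cells. With LPS it held 1318, 1387 and 1271 under the cPLA_2_ WT label and 1202, 1233 and 1325 under the cPLA_2_ KO label, so that the LPS libraries overlapped the nonconfined ones, while the confined cPLA_2_ WT libraries lay below the nonconfined cPLA_2_ WT ones. The catalytic subunit *Pik3c3* and *Pik3r4* were the 2 members that fell in cPLA_2_ WT cells, while *Ambra1*, which activates the complex, rose in both genotypes. With TMM scaling the complex had 1 lower member in cPLA_2_ WT cells. *Ambra1* had 438, 454 and 387 in nonconfined and 555, 605 and 553 in confined cPLA_2_ WT libraries, without overlap. Its cPLA_2_ WT change was 0.42 ± 0.10 (adjusted p = 9.37e-04), and it was not called with equal totals per library (0.20, adjusted p = 0.0969).

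The next 6 genes bring lipid to the membrane or read PI3P. In cPLA_2_ WT cells 5 rose, beside 28.2% of all genes, and 1 fell, beside 28.4%, with the same counts at equal totals per library, and in cPLA_2_ KO cells 6 rose, beside 22.8%, of which 5 were called with equal totals or with TMM scaling. *Atg9a*, the lipid scramblase carried on small vesicles, had 2284, 2362 and 2352 in nonconfined cPLA_2_ WT and 3545, 3528 and 3540.5 in confined cPLA_2_ WT libraries. In cPLA_2_ KO libraries it had 2210.3, 2417 and 2252 and 3003, 2656 and 2972. Confined cPLA_2_ WT libraries lay highest, confined cPLA_2_ KO libraries between them and the nonconfined ones. Its cPLA_2_ WT rise was 0.60 ± 0.06 (adjusted p = 9.86e-09). *Vmp1*, a scramblase of the endoplasmic reticulum, had 1705, 1801 and 1767 and 2589.7, 2568 and 2625 in nonconfined and confined cPLA_2_ WT libraries, and 1799.8, 1711 and 1759.5 and 2659, 2615 and 2789.5 in cPLA_2_ KO libraries. Here the genotypes overlapped, and confined libraries lay above all nonconfined ones. The rise was 0.56 ± 0.05 in cPLA_2_ WT (adjusted p = 1.13e-09) and 0.61 ± 0.05 in cPLA_2_ KO cells (adjusted p = 6.44e-10). *Wipi1* and *Wipi2* encode PI3P-binding proteins, of which WIPI2 recruits the conjugation machinery. *Wipi1*, the member with the lowest level per kilobase in nonconfined cPLA_2_ WT cells, had 178, 166 and 189 in nonconfined cPLA_2_ WT and 348, 309.6 and 349 in confined cPLA_2_ WT libraries. It had 157, 163 and 189 in nonconfined cPLA_2_ KO and 308, 273 and 249.7 in confined cPLA_2_ KO libraries, and confined libraries lay above nonconfined ones in each genotype. The rise was 0.91 ± 0.17 in cPLA_2_ WT (adjusted p = 8.62e-05) and 0.70 ± 0.17 in cPLA_2_ KO cells (adjusted p = 0.00176). *Wipi2* had 2607, 2528 and 2732 and 3976, 3809.9 and 3933 in cPLA_2_ WT, and 2724, 2792 and 2645 and 3429, 3339.8 and 3465 in cPLA_2_ KO libraries. The confined cPLA_2_ WT libraries lay above the confined cPLA_2_ KO libraries without overlap, and the cPLA_2_ WT rise was 0.58 ± 0.04 (adjusted p = 2.34e-10).

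The lipid transfer proteins ATG2A and ATG2B, which bridge the endoplasmic reticulum and the growing membrane, parted company. *Atg2a* had 1925, 1839 and 1910.3 in nonconfined cPLA_2_ WT and 2980.1, 2649.7 and 2859 in confined cPLA_2_ WT libraries, and 1937, 2020.96 and 1974 and 2538, 2320.3 and 2426 in the matching cPLA_2_ KO libraries. It rose in each genotype, by 0.58 ± 0.05 in cPLA_2_ WT cells (adjusted p = 4.25e-09). *Atg2b* had 2889, 2870.2 and 2773 in nonconfined cPLA_2_ WT and 2016, 2297 and 2262 in confined cPLA_2_ WT libraries. In cPLA_2_ KO cells it had 2234, 2545 and 2424 when nonconfined and 2673, 2752 and 2730.3 when confined. Confined libraries were thus the low ones in cPLA_2_ WT and the high ones in cPLA_2_ KO cells, without overlap in either genotype. The change was −0.38 ± 0.07 in cPLA_2_ WT (adjusted p = 1.11e-04) and 0.18 ± 0.07 in cPLA_2_ KO cells (adjusted p = 0.0434), and the difference between these changes was 0.56 ± 0.10 (adjusted p = 2.25e-04). The cPLA_2_ KO rise was not called with equal totals per library (adjusted p = 0.152), with TMM scaling (0.0570), with edgeR (0.0577), with the replicate number as a term (0.0560) or with no minimum count (0.0729). It was also not called without nonconfined cPLA_2_ KO replicate 1 (adjusted p = 0.195) or 3 (0.0751), or without confined cPLA_2_ KO replicate 1 (0.0638), 2 (0.103) or 3 (0.0935).

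Of the 11 genes of the conjugation systems, 5 rose, beside 28.2% of all genes, and 3 fell, beside 28.4%, in cPLA_2_ WT cells, and 6 rose, beside 22.8%, and 1 fell, beside 23.4%, in cPLA_2_ KO cells. Equal totals per library gave 3 higher and 5 lower in cPLA_2_ WT cells. *Atg12*, the ubiquitin-like protein that is joined to ATG5, had 2199.8, 2309 and 2155 in nonconfined and 3613, 3509.8 and 3524 in confined cPLA_2_ WT libraries. It had 2474, 2375 and 2288 and 3203, 3297 and 3349.9 in the cPLA_2_ KO libraries. Confined libraries lay above nonconfined ones, and the rise was 0.68 ± 0.04 in cPLA_2_ WT (adjusted p = 2.51e-11) and 0.46 ± 0.04 in cPLA_2_ KO cells (adjusted p = 2.31e-08). *Atg16l2*, a relative of the ATG16L1 scaffold, had 551, 539 and 510.0 in nonconfined and 860.0, 825 and 968 in confined cPLA_2_ WT libraries, and 556, 524 and 546 and 806, 694 and 724 in cPLA_2_ KO libraries. It rose by 0.73 ± 0.08 in cPLA_2_ WT (adjusted p = 2.29e-07) and by 0.45 ± 0.08 in cPLA_2_ KO cells (adjusted p = 1.84e-04), and confined libraries lay above nonconfined ones in both. *Atg16l1* itself had 515, 489 and 539 in nonconfined and 469, 406 and 413 in confined cPLA_2_ WT libraries, and was among the 3 that fell there. *Atg4c*, one of the proteases that trim and release ATG8 proteins, had 374, 374 and 355 and 529, 436 and 534 in cPLA_2_ WT, and 313, 341 and 380.4 and 581, 543 and 514 in cPLA_2_ KO libraries. The confined libraries were the high ones in both genotypes. It rose by 0.66 ± 0.11 in cPLA_2_ KO cells (adjusted p = 2.48e-05) and by 0.44 ± 0.11 in cPLA_2_ WT cells (adjusted p = 0.00133), the latter not called with equal totals per library (0.21, adjusted p = 0.0930). *Atg10*, the enzyme that passes ATG12 on to ATG5, had 436, 449 and 398 in nonconfined and 317, 302 and 319.8 in confined cPLA_2_ WT libraries, and 381, 387 and 377 and 326, 326 and 299.8 in cPLA_2_ KO libraries. It was lower after confinement in both genotypes, at −0.45 ± 0.09 in cPLA_2_ WT (adjusted p = 2.99e-04) and −0.27 ± 0.09 in cPLA_2_ KO cells (adjusted p = 0.0234). The protease gene *Atg4a* was called in neither genotype.

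*Atg5* and *Atg7* rose with confinement in cPLA_2_ KO cells and were not called in cPLA_2_ WT cells. ATG7 is the activating enzyme of both conjugation systems, and ATG5 is the protein to which ATG12 is joined. *Atg7* had 3731, 3415 and 3582 in nonconfined cPLA_2_ WT and 3532, 3132 and 3517 in confined cPLA_2_ WT libraries. It had 3831, 3979 and 3738 in nonconfined cPLA_2_ KO and 4732, 4349.6 and 4518 in confined cPLA_2_ KO libraries. The 3 confined cPLA_2_ KO libraries stood above all 15 others of the study, while the cPLA_2_ WT groups overlapped. The change was 0.24 ± 0.05 in cPLA_2_ KO (adjusted p = 9.97e-04) and −0.08 ± 0.05 in cPLA_2_ WT cells (adjusted p = 0.230), and it differed between the genotypes by 0.31 ± 0.08 (adjusted p = 0.00343). *Atg5* had 888, 969.5 and 903 and 896, 895 and 862 in nonconfined and confined cPLA_2_ WT libraries, and 975, 888 and 917 and 1156, 1164 and 1181 in cPLA_2_ KO libraries. Again the confined cPLA_2_ KO libraries stood above all others. The change was 0.33 ± 0.06 in cPLA_2_ KO (adjusted p = 2.19e-04) and −0.06 ± 0.06 in cPLA_2_ WT cells (adjusted p = 0.482), with a difference of 0.39 ± 0.09 (adjusted p = 0.00269). Both genes were called lower in cPLA_2_ WT cells with equal totals per library, *Atg5* at −0.28 and *Atg7* at −0.30.

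The ATG8 family supplies the proteins that coat the autophagosome and bind receptors. Of its 5 genes 4 rose with confinement in each genotype, beside 28.2% of all genes in cPLA_2_ WT and 22.8% in cPLA_2_ KO cells, or 2 in cPLA_2_ WT and 4 in cPLA_2_ KO cells with equal totals per library. *Gabarapl1*, of the GABARAP branch, had 650.0, 719.7 and 693 in nonconfined cPLA_2_ WT and 1935, 1826 and 1818 in confined cPLA_2_ WT libraries. In cPLA_2_ KO cells it had 748, 719.6 and 766 when nonconfined and 1909, 2077 and 2034 when confined. The 6 confined libraries lay far above the 6 nonconfined ones, and the genotypes overlapped within each setting. It rose by 1.43 ± 0.07 in cPLA_2_ WT (adjusted p = 4.10e-13) and by 1.43 ± 0.07 in cPLA_2_ KO cells (adjusted p = 1.42e-12). The difference between these changes was −0.01 ± 0.10 (adjusted p = 0.978), with a 95% interval of −0.22 to 0.21, and its sign turned to 0.18 with equal totals per library and to as much as 0.03 when single libraries were left out. *Map1lc3a*, of the LC3 branch, had 150.1, 139.8 and 139 in nonconfined cPLA_2_ WT and 256, 209 and 274 in confined cPLA_2_ WT libraries. It had 146, 159 and 134 and 187, 210.1 and 239 in cPLA_2_ KO libraries, again without overlap between confined and nonconfined. The rise was 0.77 ± 0.14 in cPLA_2_ WT (adjusted p = 5.56e-05) and 0.53 ± 0.14 in cPLA_2_ KO cells (adjusted p = 0.00342).

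The other ATG8 genes stood higher in nonconfined cells and changed less with confinement. *Map1lc3b*, which encodes the LC3B protein used as a marker of autophagosomes, had 6011, 6076 and 6293 in nonconfined cPLA_2_ WT and 7151, 7063 and 7026 in confined cPLA_2_ WT libraries. In cPLA_2_ KO libraries it had 7522, 6733 and 6838 and 8315, 8594 and 8638. The cPLA_2_ KO libraries lay above the cPLA_2_ WT libraries in both settings. *Gabarap* had 20607, 20645 and 21057 in nonconfined and 25198, 23359 and 23921 in confined cPLA_2_ WT libraries, and 25366, 22358 and 23682 and 26847, 26690.4 and 27071 in the matching cPLA_2_ KO libraries. Here too confined libraries lay above nonconfined ones within each genotype. Both genes rose in each genotype, by 0.21 and 0.28 for *Map1lc3b* and by 0.22 and 0.18 for *Gabarap* in cPLA_2_ WT and cPLA_2_ KO cells. In cPLA_2_ WT cells neither was called with equal totals per library, where the median change of the family was −0.008. *Gabarapl2* had 1772, 1902 and 1869 in nonconfined and 2036, 1988 and 2005 in confined cPLA_2_ WT libraries, and 2422, 1976 and 2109 and 1994, 2010.0 and 2092 in the matching cPLA_2_ KO libraries, and was called in neither genotype.

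The cargo receptors, which link ubiquitin or other tags to ATG8 proteins, carried the largest change with confinement in cPLA_2_ WT cells. Of the 4, 3 rose in each genotype, beside 28.2% and 22.8% of all genes, also with equal totals per library, where 1 was called lower in cPLA_2_ WT cells. *Optn* encodes optineurin, a ubiquitin-binding receptor for bacteria and damaged mitochondria. It had 603, 592 and 667 in nonconfined cPLA_2_ WT and 2298, 2333 and 2203 in confined cPLA_2_ WT libraries. In cPLA_2_ KO cells it had 785, 726 and 744 when nonconfined and 1556, 1258 and 1379 when confined. The confined cPLA_2_ WT libraries were highest, the confined cPLA_2_ KO libraries stood between them and the nonconfined ones, and no groups compared overlapped. *Optn* rose 3.67-fold in cPLA_2_ WT (log2 1.88 ± 0.09, adjusted p = 2.46e-13) and 1.85-fold in cPLA_2_ KO cells (log2 0.89 ± 0.09, adjusted p = 1.00e-07). The cPLA_2_ KO change minus the cPLA_2_ WT change was −0.99 ± 0.13 on the log2 scale (adjusted p = 5.90e-06). *Tax1bp1*, a receptor that also clears protein aggregates, had 7796, 8035 and 8093 in nonconfined cPLA_2_ WT and 20142, 19854 and 19842 in confined cPLA_2_ WT libraries. In cPLA_2_ KO cells it had 8571, 8441 and 8121 and 13175, 11662 and 12536. The order of groups was that of *Optn*, with the confined cPLA_2_ WT libraries above all 15 others of the study. It rose 2.50-fold in cPLA_2_ WT (log2 1.32 ± 0.04, adjusted p = 9.34e-17) and 1.49-fold in cPLA_2_ KO cells (log2 0.57 ± 0.04, adjusted p = 3.64e-10), and the difference was −0.75 ± 0.06 (adjusted p = 1.72e-09). *Nbr1*, a receptor related to p62, had 2237, 2324 and 2295 and 3033, 3126 and 2980.2 in cPLA_2_ WT, and 2163, 2498 and 2226 and 3122, 3178 and 3067 in cPLA_2_ KO libraries. It rose by 0.41 in cPLA_2_ WT and 0.45 in cPLA_2_ KO cells, with confined libraries above nonconfined ones. *Calcoco1*, a receptor for turnover of the endoplasmic reticulum, was called in neither.

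**Figure D3:**
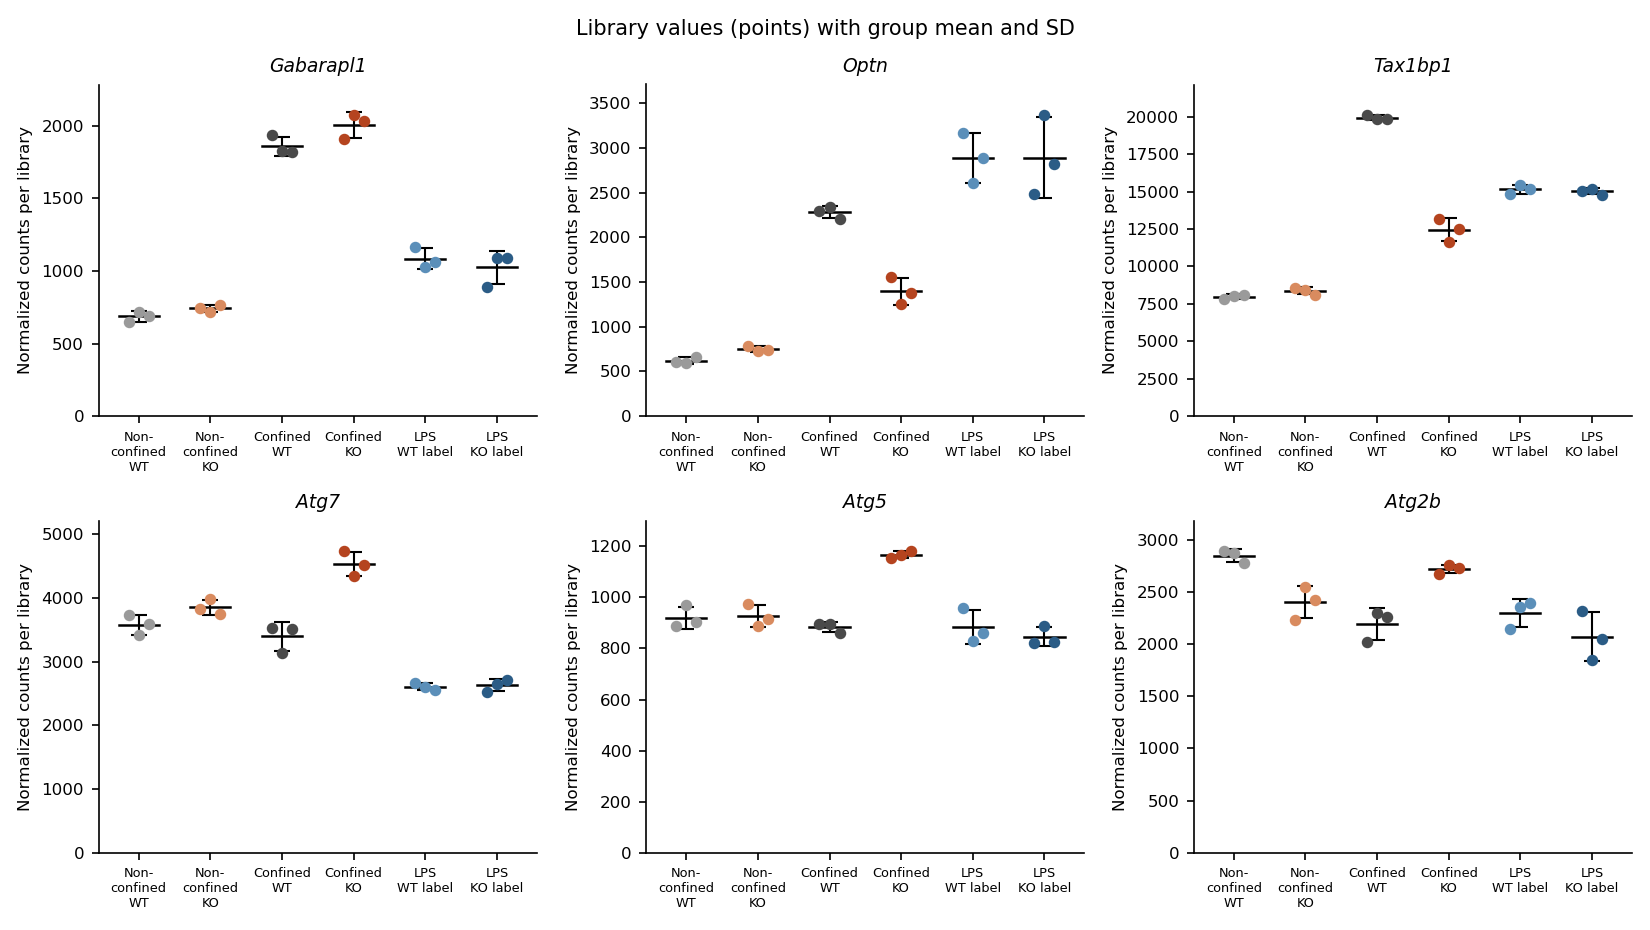
Normalized counts per library (points) with mean and SD (n = 3) of *Gabarapl1*, *Optn*, *Tax1bp1*, *Atg7*, *Atg5* and *Atg2b* in the 6 groups. *Gabarapl1* is at 1818 to 2077 in confined libraries of either genotype, while *Optn* and *Tax1bp1* are higher in confined cPLA_2_ WT and *Atg7* and *Atg5* in confined cPLA_2_ KO libraries.

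The genes of fusion with the lysosome closed the list with small changes. *Stx17*, the syntaxin of the autophagosome, was not called with confinement in either genotype or with LPS over both labels, with group means between 551 ± 22.8 normalized counts in the LPS cPLA_2_ WT label and 644 ± 38.2 in confined cPLA_2_ KO cells. It was lower for the LPS cPLA_2_ WT label alone (−0.21, adjusted p = 0.0313), with LPS under TMM scaling (−0.17, adjusted p = 0.0126), and with equal totals per library both with LPS (−0.62) and with cPLA_2_ WT confinement (−0.39). *Epg5*, the tether between autophagosome and lysosome, had 2134, 2142 and 1994 in nonconfined cPLA_2_ KO and 2329.6, 2300.1 and 2384 in confined cPLA_2_ KO libraries. That made it the 1 fusion gene higher in cPLA_2_ KO cells, beside 22.8% of all genes, and it was not called with equal totals per library.

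The interaction asks whether confinement changed a gene by a different amount in cPLA_2_ KO than in cPLA_2_ WT cells. It was called for 11 members, 4 with a change higher in cPLA_2_ KO cells, beside 10.2% of all genes, and 7 with one lower in cPLA_2_ KO cells, beside 15.6%. The 4 were *Ulk2*, *Atg2b*, *Atg5* and *Atg7*, and the 7 were *Rb1cc1*, *Atg2a*, *Atg9a*, *Wipi2*, *Atg12*, *Optn* and *Tax1bp1*. The receptors *Optn* and *Tax1bp1* held the largest differences, −0.99 and −0.75, and the others lay between −0.28 and 0.56. The median over the members was 0.02, against 0.05 over all genes. The split was 17 higher and 2 lower with equal totals per library, with the median of all genes at 0.24. The 2 lower members there were *Optn* and *Tax1bp1*, while the differences of *Rb1cc1*, *Atg2a*, *Atg9a*, *Wipi2* and *Atg12* were no longer called. The neutrophil and eosinophil marker sums, given above per library, also moved with confinement by different amounts in the 2 genotypes, and their part in these differences was not tested.

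Comparing cPLA_2_ KO with cPLA_2_ WT cells within confinement asks how the genotypes differ in the confined state. There 7 members were higher in cPLA_2_ KO cells, beside 18.8% of all genes, and 8 were lower, beside 20.6%. *Optn* was lower, at −0.71 ± 0.09 (adjusted p = 2.67e-06), and so was *Tax1bp1*, at −0.68 ± 0.04 (adjusted p = 1.50e-11), in 3 of 3 libraries against each cPLA_2_ WT library. *Atg9a* was lower as well, at −0.30 ± 0.06 (adjusted p = 2.26e-04), a call lost with equal totals per library (adjusted p = 0.0552). *Atg7* was higher by 0.42 ± 0.05 (adjusted p = 1.51e-06), *Atg5* by 0.40 ± 0.06 (adjusted p = 3.41e-05) and *Atg2b* by 0.31 ± 0.07 (adjusted p = 0.00135). *Ulk2*, *Atg3*, *Map1lc3b* and *Gabarap* made up the higher members, with changes between 0.15 and 0.29. *Rb1cc1*, *Atg2a*, *Wipi2*, *Atg4d* and *Atg16l2* made up the lower ones, between −0.28 and −0.18. *Gabarapl1* differed by 0.11 ± 0.07 (adjusted p = 0.265), and was called higher with equal totals per library (0.26, adjusted p = 0.00364). The median over the members was 0.02, against 0.04 over all genes. With equal totals per library, where the median of all genes was 0.19, 19 members were higher and 2 were lower.

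Nonconfined cells were compared between the genotypes next. There 3 members were higher in cPLA_2_ KO cells, beside 4.78% of all genes, and 1 was lower, beside 4.11%. The higher ones were ATG8 genes, *Map1lc3b* at 0.20 ± 0.05 (adjusted p = 0.0232), *Gabarap* at 0.19 ± 0.05 (adjusted p = 0.0190) and *Gabarapl2* at 0.23 ± 0.07 (adjusted p = 0.0389). None of these 3 was called with the compared groups fitted alone (adjusted p = 0.0512, 0.0516 and 0.117 in that order). *Gabarapl2* was also not called with the replicate number as a term (adjusted p = 0.0541), with equal totals per library (0.0562) or with no minimum count (0.0677). The lower member was *Atg2b* at −0.25 ± 0.07 (adjusted p = 0.0349), a call lost with the replicate number as a term (0.0515) and with no minimum count (0.0622). In each of the 4 the 3 cPLA_2_ KO libraries did not overlap the 3 cPLA_2_ WT libraries. Equal totals per library gave 2 members higher and 2 lower. The count of higher members went to 0 without nonconfined cPLA_2_ WT replicate 1, cPLA_2_ WT replicate 2 or cPLA_2_ KO replicate 1, and to 1 without cPLA_2_ WT replicate 3 or cPLA_2_ KO replicate 3. The count of lower members went to 0 without any 1 of those 5 libraries. *Optn* differed by 0.28 ± 0.09 (adjusted p = 0.0720) and was called by DESeq2 (adjusted p = 0.0472) and with the compared groups fitted alone (0.0487), while *Tax1bp1* differed by 0.07 ± 0.04 (adjusted p = 0.341). The median over the members was 0.02, against 0.00 over all genes. In LPS libraries limma called 0 members between the genotype labels, beside 0% of all genes. At an unadjusted p under 0.05 it gave 3 members and 890 genes, and edgeR and DESeq2 each called 0 genes. *Ddx3y* had 1271, 0 and 662 under the cPLA_2_ WT label and 2.12, 1476 and 783 under the cPLA_2_ KO label. Each LPS label thus mixed libraries with and without Y-linked transcripts, and these counts cannot tell whether the genotypes differ with LPS.

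LPS, which triggers toll-like receptor 4, was compared with nonconfined cells on the day after exposure. As the mean over both labels, 22 members were higher, beside 37.2% of all genes, and 8 were lower, beside 34.3%. The LPS comparison shares its nonconfined cPLA_2_ WT libraries with the confinement comparison in cPLA_2_ WT cells and its nonconfined cPLA_2_ KO libraries with that in cPLA_2_ KO cells. *Optn* had 3167, 2612 and 2888 under the cPLA_2_ WT label and 2481, 3371 and 2820.4 under the cPLA_2_ KO label, all above every nonconfined and confined library. It rose 4.21-fold (log2 2.07 ± 0.07, adjusted p = 2.55e-17) and was the 1 member above a log2 fold change of 1, beside 15.6% of all genes. *Tax1bp1* had 14853, 15436 and 15192 and 15066, 15197 and 14800.2 under these labels, between the nonconfined and the confined cPLA_2_ WT libraries. Its rise was 0.88 ± 0.03 (adjusted p = 5.62e-17). *Atg9a* had 3818, 4413 and 4083 and 4493, 4137 and 4303, all above its other libraries, and rose by 0.86 ± 0.04 (adjusted p = 2.27e-14). *Rb1cc1* had 3724, 3898 and 3854 and 3567, 3534 and 3519, above every nonconfined library. It rose by 0.63 ± 0.03 (adjusted p = 2.31e-13).

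Further members rose with LPS, and *Ambra1*, *Atg4d* and *Becn1* moved less with confinement. *Ambra1* had 723, 656 and 705 under the cPLA_2_ WT label and 670.4, 712 and 696 under the cPLA_2_ KO label, all above its confined libraries, and rose by 0.80 ± 0.07 (adjusted p = 9.33e-10). *Atg4d*, another ATG8 protease, had 1084, 1039 and 1063 and 1102, 1117 and 1099 with LPS, against 671, 613 and 581 in nonconfined cPLA_2_ WT and 584, 631 and 631 in nonconfined cPLA_2_ KO libraries. It rose by 0.81 ± 0.05 (adjusted p = 7.72e-12), with all 6 LPS libraries above all 6 nonconfined ones. *Wipi1* had 245, 375 and 279.8 and 379.7, 217 and 321 and rose by 0.77 ± 0.12 (adjusted p = 5.84e-06). These libraries spread more widely within a label than those of the other groups did. *Becn1* had 3694, 3544 and 3473 and 3385, 3637 and 3448, all above its other libraries. Its change was 0.37 ± 0.03 (adjusted p = 3.15e-09), and it was −0.13 with equal totals per library. Of the members that fell, *Atg7* had 2668, 2594 and 2558 and 2523, 2653 and 2711, all below its other libraries, and *Calcoco1* had 653, 639 and 574 and 560.1, 545 and 659, also below its nonconfined libraries. *Atg7* changed by −0.50 ± 0.04 (adjusted p = 7.68e-11) and *Calcoco1* by −0.56 ± 0.07 (adjusted p = 1.58e-07).

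Of the 5 ATG8 genes 4 were higher with LPS, beside 37.2% of all genes, and 1 was lower, beside 34.3%, or 0 and 3 with equal totals per library. *Gabarapl1* had 1165, 1028 and 1062 under the cPLA_2_ WT label and 893, 1092 and 1089 under the cPLA_2_ KO label, between its nonconfined and confined libraries, and rose by 0.56 ± 0.05 (adjusted p = 3.56e-09). *Gabarap* had 30218, 27820.2 and 29808 and 28201, 31899 and 30505, all above its other libraries, and rose by 0.42 ± 0.04 (adjusted p = 6.95e-10). *Map1lc3a* had 166, 196 and 230.4 and 226, 227 and 205 and rose by 0.52 ± 0.10 (adjusted p = 6.57e-05), with its LPS libraries above the nonconfined ones. *Gabarapl2* had 2244, 2073 and 2359 and 2121, 2393 and 2385 and was the 1 other ATG8 gene called higher, though not for the cPLA_2_ KO label alone (0.09, adjusted p = 0.270). *Map1lc3b* had 6137, 5412 and 5856 and 5518, 6249.6 and 5932, which overlapped the nonconfined cPLA_2_ WT libraries. It was called lower, at −0.17 ± 0.04 (adjusted p = 4.46e-04), but not called for the cPLA_2_ WT label alone (−0.08, adjusted p = 0.197). With equal totals per library *Gabarap* was at −0.08 and *Gabarapl2* at −0.32, both called lower, and *Gabarapl1* and *Map1lc3a* were not called (0.06 and 0.02). By label, 22 members were higher, beside 33.4% of all genes, and 7 lower, beside 29.4%, with the cPLA_2_ WT label against nonconfined cPLA_2_ WT cells. With the cPLA_2_ KO label against nonconfined cPLA_2_ KO cells 17 were higher, beside 33.4%, and 6 lower, beside 30.1%. Of the members called and named in these LPS paragraphs, *Map1lc3b* and *Gabarapl2* were called for 1 label alone, and the others were called for each label in the same direction. The median over the members was 0.17, against 0.02 over all genes. With TMM scaling 19 were higher and 12 lower. With equal totals per library, where the median of all genes was −0.46, 7 were higher and 28 lower. Shares of all genes called were not taken at these scalings, so these counts have no such share beside them. Normalized totals averaged 48718670 and 48721816 in the LPS libraries.

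Confined cPLA_2_ WT cells were also compared with LPS cells. Confined cells were collected 4 h after confinement began, while LPS cells were washed and kept until the next day. Stimulus, time and handling therefore cannot be told apart in this comparison. Relative to LPS, 15 members were higher in confined cPLA_2_ WT cells, beside 24.5% of all genes, and 11 were lower, beside 29.8%. *Gabarapl1* was higher by 0.82 ± 0.06 (adjusted p = 5.19e-10), with all 3 confined cPLA_2_ WT libraries above all 6 LPS libraries. *Tax1bp1* was higher by 0.40 ± 0.04 (adjusted p = 5.03e-09), and *Ulk1* by 0.55 ± 0.06 (adjusted p = 3.19e-07). *Ulk1* had 1203, 1212 and 1348 and 1202, 1228 and 1198 under the LPS labels, overlapping its nonconfined libraries. *Atg16l2* and *Calcoco1* were higher by 0.54 and 0.55. *Atg16l1*, with 550.0, 633 and 596 and 594, 601 and 653 under the LPS labels, was lower in confined cPLA_2_ WT cells, at −0.49 ± 0.07 (adjusted p = 3.00e-06), and so was *Becn1*, at −0.43 ± 0.04 (adjusted p = 1.97e-08). *Optn* was lower, at −0.34 ± 0.08 (adjusted p = 0.00145), a call lost with equal totals per library (−0.05, adjusted p = 0.606). The median over the members was 0.01, against −0.01 over all genes. With equal totals per library, where the median of all genes was 0.27, 28 members were higher and 2 lower. For the cPLA_2_ WT label alone 14 members were higher, beside 21.6% of all genes, and 9 lower, beside 27.2%, and for the cPLA_2_ KO label alone 14, beside 22.2%, and 11, beside 27.1%. The 8 genes named in this paragraph were called in the same direction against either label.

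Levels of different genes can be compared per kilobase of transcript, taken as the longest in the GENCODE annotation of GRCm39, in which 39 of the 39 members overlap a gene of the same symbol. In nonconfined cPLA_2_ WT cells *Gabarap* stood highest with 11774 normalized counts per kilobase, followed by *Tax1bp1* with 1663 and *Map1lc3b* with 1481. *Atg3*, the enzyme that passes ATG8 proteins to the membrane lipid, had 832, *Atg7* 767 and *Becn1* 602 per kilobase. *Gabarapl1* had 207, *Optn* 146 and *Map1lc3a* 123 per kilobase, and *Atg4c* with 47.4 and *Wipi1* with 35.0 stood lowest. The members that rose most with confinement were therefore not the abundant ones, except for *Tax1bp1*. In confined cPLA_2_ WT cells *Tax1bp1* reached 4159.7, *Gabarapl1* 559 and *Optn* 536 per kilobase. On GRCm39 *Optn* lies at chr2:5025453-5068928 on the minus strand, *Tax1bp1* at chr6:52690714-52743762 and *Gabarapl1* at chr6:129510123-129519295 on the plus strand. *Atg7* lies at chr6:114620081-114837573 and *Atg5* at chr10:44144335-44240287 on the plus strand, and *Atg2b* at chr12:105579798-105651502 on the minus strand.

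Promoter sequences from RefSeq (build GRCm38.p6, 250 bases before to 50 after the start of a gene) were searched on both strands, and 32 members matched with 38 promoters. Entries were missing for *Rb1cc1*, *Becn1*, *Pik3c3*, *Atg12*, *Atg16l1*, *Map1lc3a* and *Epg5*. CACGTG, the E-box core read by the MiT/TFE factors and others, is in 7.15% of all 32851 promoters. It is in 4 of the 38 member promoters, those of *Atg3*, *Atg5*, *Atg7* and *Atg14*. TCACGTGA, which contains it and is the form preferred by TFEB, is in 0.974% of all promoters and in that of *Atg3*. GAAANNGAA, the interferon-stimulated response core, is in 8.56% of all promoters and in those of *Atg10*, *Nbr1* and *Uvrag*. Between confined genotypes *Atg14* was not called, while *Ulk2*, *Atg2b*, *Map1lc3b* and *Gabarap* were higher in cPLA_2_ KO cells without holding CACGTG. The windows of the 3 conjugation genes are printed because *Atg3*, *Atg5* and *Atg7* were all higher in confined cPLA_2_ KO than in confined cPLA_2_ WT cells. All lie on the plus strand, at chr6:114670955-114670978 for *Atg7*, chr10:44268316-44268338 for *Atg5*, and chr16:45158726-45158749 and chr16:45158748-45158773 for *Atg3*. Capitals mark the motif, and a match describes the letters and says nothing of a factor.
Atg7: attggtggtCACGTGtgcagtaag
Atg5: agcgcttgcCACGTGgtcttggt
Atg3, farther from the start: tccttttgtCACGTGtcctgggag
Atg3, nearer the start: agagtcgagTCACGTGAggccttagg

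Other autophagy genes that are not members were followed as a list of 61, all tested, of upstream regulators, membrane factors, receptors and fusion factors. With confinement 26 were higher, beside 28.2% of all genes, and 19 lower, beside 28.4%, in cPLA_2_ WT cells, and 29 higher, beside 22.8%, and 12 lower, beside 23.4%, in cPLA_2_ KO cells. Equal totals per library gave 18 higher and 32 lower in cPLA_2_ WT cells. The interaction was called higher for 19, beside 10.2%, and lower for 13, beside 15.6%. In confined cells 23 were higher, beside 18.8%, and 15 lower, beside 20.6%, in cPLA_2_ KO than in cPLA_2_ WT, in nonconfined cells 4, beside 4.78%, and 1, beside 4.11%, and between the LPS labels 0 by limma. *Sqstm1* encodes p62, the receptor that links ubiquitin to ATG8 proteins. It had 9584, 9143 and 9296 in nonconfined cPLA_2_ WT and 56628, 53594 and 54791 in confined cPLA_2_ WT libraries, and 11142, 10869 and 11054 and 42389.7, 39635 and 42298 in cPLA_2_ KO libraries. All confined libraries lay far above all nonconfined ones, with a rise of 2.56 ± 0.11 for cPLA_2_ WT cells and 1.91 ± 0.11 for cPLA_2_ KO cells. With LPS it had 94401, 63260.5 and 78274 under the cPLA_2_ WT label and 63295, 93097 and 80892 under the cPLA_2_ KO label, a rise of 2.94 ± 0.08.

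Among upstream regulators, *Ddit4* encodes an inhibitor of mTORC1, the kinase that holds autophagy back. It had 1081, 956 and 1099 in nonconfined cPLA_2_ WT and 11163, 10107 and 10546 in confined cPLA_2_ WT libraries, against 1189, 1128 and 1032 and 1609.9, 1720 and 1649 in cPLA_2_ KO libraries. The confined cPLA_2_ WT libraries stood alone, with a rise of 3.34 ± 0.18 from which the cPLA_2_ KO change differed by −2.77 ± 0.25 (adjusted p = 1.60e-08). In confined cells cPLA_2_ KO was lower than cPLA_2_ WT, at −2.67 ± 0.18. *Foxo1*, a transcription factor of autophagy genes, rose by 1.63 in cPLA_2_ WT cells, with a difference in cPLA_2_ KO cells of −1.03. *Mitf*, of the TFEB family, rose by 1.76 in cPLA_2_ WT and 1.23 in cPLA_2_ KO cells. *C9orf72* rose by 1.40 in cPLA_2_ WT cells, and the mTOR inhibitor *Deptor* fell there by 1.05 and the sestrin gene *Sesn1* by 1.33. *Atg9b*, the relative of *Atg9a*, was at −1.01 in cPLA_2_ WT cells (adjusted p = 0.0338), a call lost without any nonconfined cPLA_2_ WT replicate (1, adjusted p = 0.0693, 2, 0.0709, 3, 0.0709) and without confined cPLA_2_ WT replicate 2 (0.120) or 3 (0.0715). That call was also lost with no minimum count (adjusted p = 0.0653).

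With LPS 31 of the 61 were higher, beside 37.2% of all genes, and 22 lower, beside 34.3%, or 17 and 38 with equal totals per library. The mitophagy receptor *Bnip3* rose by 3.28, the glycogen receptor *Stbd1* by 2.16 and the kinase *Tbk1*, which phosphorylates optineurin, by 1.42. *Bnip3* ranged from 7038 to 13191 over the LPS libraries, which parted within each label. *Mitf* rose by 2.14, *C9orf72* by 1.72, *Ddit4* by 1.28, *Akt1s1* by 1.18 and *Foxo1* by 1.13. *Tfeb*, a master regulator of lysosome and autophagy genes, was lower at −1.33, the receptor gene *Ccpg1* at −1.52, *Trp53inp1* at −1.71 and *Deptor* at −2.13. *Atg9b* was at −1.62, *Sesn1* at −1.65 and *Sesn3* at −1.06. Confined cPLA_2_ WT cells had 21 of the 61 higher than LPS cells, beside 24.5%, and 20 lower, beside 29.8%, or 41 and 8 with equal totals per library. *Ddit4* was higher there by 2.02, *Trp53inp1* by 1.56, *Rubcnl* by 1.22 and *Deptor* by 1.09, while *Stbd1* was at −2.14 and *Bnip3* at −2.75.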

How the data were processed

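The unit of the deposited table is signal: per the labels and the study's methods, the authors mapped reads with STAR 2.7.5a to mm39, counted them per gene with featureCounts 1.5.0 on the FAST DB annotation and divided each library by its DESeq2 size factor. The strand setting, and how reads that fit several related genes were counted, are not given. Groups were taken from the sample titles, since the protocol text names LPS for every sample. Whole reads were recovered from the size factors. The spread of a member's reads between the 3 libraries of a group was above counting error in 116 of 234 cases (39 members in 6 groups) by a chi-square test at an unadjusted p under 0.05, and in the others it could not be told from counting error. Intervals cover these libraries alone.

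The log2 of each normalized count plus a pseudocount of 1 was fitted with limma 3.58.1 (lmFit, contrasts.fit, eBayes with a trend) in R 4.3.3, with a mean per group, on genes that reached 10 normalized counts in 3 or more libraries. Tests were two-sided and adjusted by Benjamini-Hochberg over all genes tested in a comparison. Members and gene lists were chosen with earlier results of these data known. A member's change was named by rule at an adjusted p under 0.05, a fold of at least 1.5, a mean of 100 or more normalized counts and libraries that did not overlap (except for the interaction), for at most 8 per comparison. By this rule stand *Optn*, *Gabarapl1*, *Tax1bp1*, *Wipi1*, *Map1lc3a*, *Atg16l2*, *Atg12* and *Ulk1* for cPLA_2_ WT confinement, *Gabarapl1*, *Optn*, *Wipi1*, *Atg4c* and *Vmp1* for cPLA_2_ KO confinement, *Optn* and *Tax1bp1* for the interaction and for confined genotypes, *Optn*, *Tax1bp1*, *Atg9a*, *Atg4d*, *Ambra1*, *Wipi1* and *Rb1cc1* for LPS, and *Gabarapl1* for confined cPLA_2_ WT against LPS. Other changes of members were chosen after their values were seen. Other autophagy genes were named when called with a log2 fold change beyond 1 in either direction. Library values were given for members named by rule, others picked with the values in view, the ATG8 family and the flattest member.

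The alternatives were pseudocounts of 0.5 and 5, no minimum count, a minimum of 100, equal totals per library, TMM scaling, edgeR 4.0.16 and DESeq2 1.42.0 on recovered reads, the compared groups fitted alone, the replicate number as a term, a fold of 1.5 with an unadjusted p of 0.05, each LPS label alone, and each library left out. Code was tested on simulated data. Tables were handled with Python 3.11.15 and pandas 2.3.3, and matplotlib 3.10.9 drew the figures. Intergenic signal, which the authors used as a filter, cannot be had without mapped reads and was left out. A further set of cell markers is not reported here.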

Additional observations from a re-analysis of the deposited data

Results flagged for a closer look

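The change with confinement differed between cPLA_2_ KO and cPLA_2_ WT cells, by a test of the interaction over all genes, for 11 of the 39 members of the autophagy machinery, 4 higher and 7 lower, shares close to the 10.2% and 15.6% of all genes. The difference, the cPLA_2_ KO change minus the cPLA_2_ WT change on the log2 scale, was −0.26 for *Rb1cc1* and 0.35 for *Ulk2* in the initiation complex. Among the lipid supply genes and PI3P readers it was −0.28 for *Atg2a*, 0.56 for *Atg2b*, −0.27 for *Atg9a* and −0.25 for *Wipi2*. In the conjugation systems it was 0.39 for *Atg5*, 0.31 for *Atg7* and −0.21 for *Atg12*. The cargo receptors differed most, with −0.99 for *Optn* and −0.75 for *Tax1bp1*. With equal totals per library the calls of *Rb1cc1*, *Atg2a*, *Atg9a*, *Wipi2* and *Atg12* were lost. Of the other autophagy genes with a difference above 1 in size, *Foxo1* stood at −1.03 and *Ddit4* at −2.77.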

How the results depend on the processing

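Single genes kept direction and call in 2147 of the comparisons made between a named change and its value under another setting, lost the call in 107, gained one in 5 and changed sign in 7. Counts of members stayed within 1.5 times in 268 and moved further in 42. Shares of all genes called were taken with the authors' factors alone. Where no construction shows it, the cause was not tested.

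With equal totals per library, the members called higher and lower were 16 and 13 for confinement in cPLA_2_ WT (23 and 7 with the authors' factors), 23 and 3 in cPLA_2_ KO, 17 and 2 for the interaction, 2 and 2 for genotype in nonconfined cells, 19 and 2 in confined cells, 7 and 28 for LPS, and 28 and 2 for confined cPLA_2_ WT against LPS. There *Becn1* under LPS was −0.13, *Gabarap* under LPS −0.0776 and the *Gabarapl1* interaction 0.18, each with a changed sign. With a fold of 1.5 and an unadjusted p of 0.05 the higher and lower counts were 10 and 0 for cPLA_2_ WT confinement, 5 and 0 for cPLA_2_ KO, 0 and 2 for the interaction, 0 and 0 for nonconfined genotypes, 0 and 2 for confined genotypes, 7 and 0 for LPS, and 1 and 0 for confined cPLA_2_ WT against LPS, since a fold is asked of each gene.

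The nonconfined genotype comparison gave 0 lower members with no minimum count and 2 with DESeq2. With the compared groups fitted alone its 1 higher member was *Optn*, while *Map1lc3b*, *Gabarap* and *Gabarapl2* were not called. With the replicate number as a block the lower count of this comparison was 0. Whether the numbers pair libraries was not settled. Between confined cPLA_2_ WT and cPLA_2_ KO the residual correlations of same-numbered libraries were 0.338, 0.208 and 0.0402. Between nonconfined and confined cPLA_2_ WT they were 0.183, 0.106 and −0.0638, and between the LPS labels −0.142, −0.128 and −0.00489.

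With single libraries left out, higher members in nonconfined cPLA_2_ KO against cPLA_2_ WT cells ranged from 0 to 3 and lower ones from 0 to 1, and lower members with cPLA_2_ KO confinement from 0 to 2. The *Gabarapl1* interaction ranged from −0.0397 to 0.0337. Pseudocounts of 0.5 and 5, TMM scaling and edgeR moved no count of members beyond 1.5 times.

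Limits: each group has 3 libraries of unknown independence, genotype cannot be told apart from Y-linked transcripts, and equal totals turn many small changes. In *Pla2g4a* and *Ddx3y* the LPS libraries do not follow their genotype labels as the other libraries do, and their genotype is not settled. The labels name more than one library kit without saying which library had which. RNA levels say nothing of autophagic flux, which was not measured here.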

Other observations

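Within the LPS libraries several of these genes took values that followed *Ddx3y* and not the genotype label. *Optn* had 2612 normalized counts in the cPLA_2_ WT label replicate 2 and 2481 in the cPLA_2_ KO label replicate 1, the libraries with *Ddx3y* at 0 and 2.12. It had 3167 in the cPLA_2_ WT label replicate 1 and 3371 in the cPLA_2_ KO label replicate 2, the libraries with *Ddx3y* at 1271 and 1476. Replicate 3 of each label lay between them, with 2888 and 2820. *Sqstm1* had the same order, with 63260 and 63295 in the first pair of libraries and 94401 and 93097 in the other pair. *Ddit4* had the reverse order, with 3495 and 3496 in the first pair and 1896 and 1831 in the other. So did *Bnip3*, with 13087 and 13191 against 7038 and 7102. The sum of the 8 eosinophil genes followed the split, with 27799 and 27799 in the first pair and 47874 and 48127 in the other. Among them *Siglecf* went the other way, with 1087 and 1085 against 801 and 816. The sum of the 9 macrophage genes was 53783 and 53612 against 65110 and 63167. Among these *Adgre1* had 9802 and 9618 against 14322 and 13632, while *Fcgr1* went the other way, with 4723 and 4827 against 3831 and 3845. *Mertk* overlapped, with 604 and 665 against 656 and 617. These values were noticed after the data were seen, and their origin was not tested.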
